A study of Mus musculus with 12 samples.

Results

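Sbk1, Kbtbd11, Megf10, Igfbp4 and Phlda1 are 5 of the 12151 genes measured by RNA sequencing in mouse pre-B leukemia cells in which β-catenin was stabilized. They were picked by symbol because they stood among the largest rises with stabilized β-catenin in these libraries, so their rise is a description of the choice and carries no test. Their level in Ikaros and Aiolos knockout cells against wild-type cells is not part of that rise and was tested. Earlier results of these data were known when the genes were picked, so this difference may have entered the choice.

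The 12 libraries came from bone marrow pre-B cells of Ctnnb1Ex3fl/+ mice aged 6 to 12 weeks, which were transformed with the BCR-ABL1 kinase to model acute lymphoblastic leukemia of B cells. Exon 3 of Ctnnb1 encodes the sites that mark β-catenin for degradation, and Cre removes it from 1 allele. Cells first received Cas9 with a nontargeting guide, here called WT, or with guides against both Ikzf1 and Ikzf3, here called KO, the genes of the B cell transcription factors Ikaros and Aiolos. They were then transduced with a GFP vector carrying ERT2 alone or Cre-ERT2, and GFP+ cells were sorted. This gave 2 vectors in each background, called ERT2 or Cre-ERT2 by vector and WT or KO by guide, with 3 libraries for each of the 4 groups. No group holds Cre-ERT2 without the floxed exon, so that stabilized β-catenin and Cre itself cannot be told apart. The protocol states the treatment for chromatin work, at day 1 after 4-hydroxytamoxifen, and a separate time for RNA is not given in the sources used here. The KO lines were grown from single cells, and how many clones each group holds is not stated, so that loss of the 2 factors and a difference between clones cannot be told apart. Nor is it stated whether the 3 libraries of a group came from separate cultures, and p-values then measure only the spread between these libraries.

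β-Catenin is the effector of canonical Wnt signaling. It is kept low by a destruction complex that phosphorylates it for degradation, and when it escapes it joins TCF/LEF factors at DNA and activates target genes, several of which encode feedback inhibitors of the pathway. Ikaros and Aiolos are zinc-finger factors that activate or silence genes during B cell development and recruit repressor complexes. Igfbp4 encodes a secreted protein that binds insulin-like growth factors and keeps them from their receptor. Megf10 encodes a transmembrane receptor with EGF-like repeats that takes part in engulfing apoptotic cells. Kbtbd11 encodes a BTB and kelch-repeat protein of the family that brings substrates to the CUL3 ubiquitin ligase. Phlda1 encodes a cytoplasmic protein with a pleckstrin homology-like domain, and Sbk1 a serine/threonine kinase.

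The guides that separate KO from WT cells are shown because the tests below rest on that comparison. Each is given with its target in lower case and the adjoining PAM of the genome in capitals, and both targets lie in coding exons (GRCm38, GENCODE annotation).
Ikzf1 guide, chr11:11707798-11707817, exon 3: ctggagtgtcactgactgggGGG
Ikzf3 guide, chr11:98490523-98490542, exon 4: attatgaagccggagcccatGGG
Ikzf1 read 13.75, 13.74 and 13.73 on the log2 scale in ERT2 WT libraries and 14.75, 14.74 and 14.76 in ERT2 KO libraries. In Cre-ERT2 cells it read 13.67, 13.70 and 13.66 in WT and 14.59, 14.56 and 14.61 in KO. The transcript was higher, not lower, in KO libraries by 0.96 (SE 0.013, limma adjusted p = 4.64e-15). Ikzf3 read 11.59, 11.68 and 11.61 in WT libraries with ERT2 and 10.97, 11 and 10.98 in KO libraries with ERT2. With Cre-ERT2 it read 11.93, 11.91 and 11.91 in WT and 11.34, 11.13 and 11.19 in KO, so that it was lower in KO (-0.67, SE 0.031, limma adjusted p = 6.33e-10). A gene-level value does not show whether a guide shifted the reading frame, so these values check neither the KO label nor, for Ctnnb1, the loss of 1 exon. Ctnnb1 itself averaged 12.44 without and 12.51 with Cre in WT cells, and 12.62 and 12.75 in KO cells.

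The reference tables held a promoter for 1 of the 5 genes, Igfbp4, which is shown because Igfbp4 differed with both the vector and the background. The 250 bases before its start (RefSeq, GRCm38.p6, chr11:99040994-99041243, plus strand) are given with motif matches in capitals.
Igfbp4 promoter: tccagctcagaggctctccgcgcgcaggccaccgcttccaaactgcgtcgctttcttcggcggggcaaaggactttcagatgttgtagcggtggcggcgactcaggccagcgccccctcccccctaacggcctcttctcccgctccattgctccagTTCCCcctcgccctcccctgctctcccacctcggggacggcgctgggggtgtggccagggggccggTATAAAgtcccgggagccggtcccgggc
On both strands, the TCF/LEF core CTTTGA had 0 matches in this window, and 13.8% of the 32851 mouse promoter windows of the same length held at least 1. The Ikaros core GGGAA matched once, on the minus strand (TTCCC as printed) 94 bases before the start, a motif that 56.2% of windows held. TATAAA, searched after the sequence was seen, matched 28 bases before the start and was in 12.4% of windows. Of its bases 69.2% were G or C, where the median window had 52.4%. These matches are letters in a window and not measured binding.

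All 5 genes are protein coding and lie on the plus strand of GRCm38. Kbtbd11 overlaps 5830468F06Rik and Gm37844 on the other strand, and Phlda1 overlaps the noncoding Gm28592. The library kit keeps the strand, but whether counting used it is not given in the sources used here, and without it reads of Kbtbd11 and Phlda1 could not be told from those of their antisense neighbors.

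All values are log2 normalized expression as deposited, which is not per length, so levels are compared between samples of 1 gene and not between genes. Read counts are not analysed here and the depth is unknown. Library medians lay between 9.06 and 9.11, and single libraries of a group scattered by a robust SD of 0.0325 to 0.0543 across 4410 genes whose mean exceeded 10. The cells carried their labelled identity in that all 14 B lineage markers were measured, from Rag2 at a mean of 9.74 to Cd79a at 14.74. Their summed unlogged level was 164585 to 169805 in WT and 111988 to 115794 in KO libraries. At a limma adjusted p under 0.05, 12 of 14 were lower and 2 higher in KO, where 69.0% of all genes were called. Of the T and NK cell markers 4 of 11 were measured, and their sum was 343.8 to 346.0 with ERT2 and 494.1 to 511.0 with Cre-ERT2 in WT libraries, and 352.1 to 356.3 and 827.3 to 877.4 in KO libraries. CD3, CD4 and CD8 genes were not analysed here. Of these 4, Cd5, Cd28 and Zap70 rose with Cre-ERT2 in both backgrounds (by 0.51, 0.44 and 0.65 in WT and 1.02, 1.96 and 0.41 in KO; all limma adjusted p values of 3.97e-06 or less), and Klrb1c averaged 2.41. The 2 measured of 12 myeloid markers summed to 189.4 to 196.2 in WT and 349.6 to 432.8 in KO libraries. They went opposite ways. Averaged over vectors, Lyz2 was higher in KO by 1.11 (limma adjusted p = 4.66e-13). Itgam, at a mean of only 4.60, was lower (-0.16, limma adjusted p = 1.53e-07). None of 8 erythroid markers was measured, and of 10 stromal markers Vim alone was. These sums move with the groups, and their part in the results below was not tested. In bulk RNA, a change in the share of expressing cells and a change in RNA per cell cannot be told apart.

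**Figure D1:**
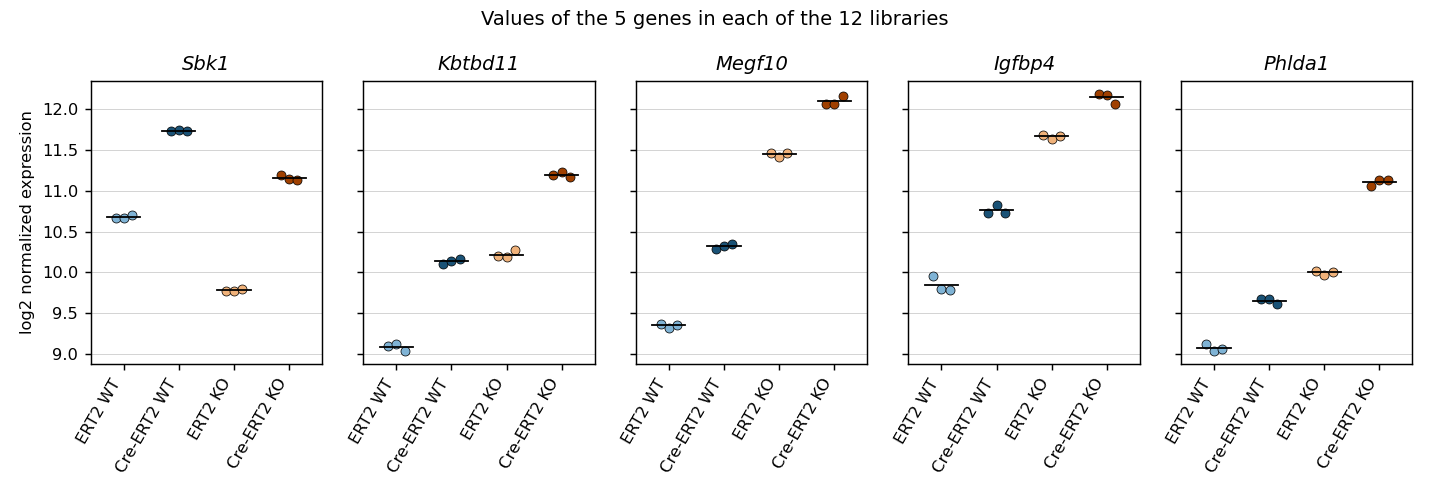
Log2 normalized expression (y axis) of the 5 genes in each of the 12 libraries, with 1 point per library and a line at each group mean. In every panel Cre-ERT2 points lie above ERT2 points of the same background. KO points lie above WT points of the same vector in 4 panels and below them for Sbk1.

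Igfbp4 (ENSMUSG00000017493; chr11:99041244-99054392, up to 4 exons) was lowest in WT cells without Cre, higher in WT cells with Cre, higher again in KO cells without Cre and highest in KO cells with both changes. It read 9.96, 9.80 and 9.78 in ERT2 WT libraries and 10.73, 10.83 and 10.73 in Cre-ERT2 WT libraries. In KO cells it read 11.69, 11.64 and 11.67 with ERT2 and 12.19, 12.18 and 12.06 with Cre-ERT2. No 2 groups overlapped, and the closest pair, ERT2 KO and Cre-ERT2 KO, were 0.37 apart at their nearest values. Stabilization went with a 1.89-fold higher level in WT and a 1.39-fold higher level in KO cells (log2 differences 0.92 and 0.48, SE 0.050 each). Igfbp4 was the least even of the genes among replicates, with an SD of 0.10 in ERT2 WT.

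Igfbp4 differed by more between backgrounds than between vectors. Averaged over both vectors, a contrast that is balanced against the rise by which the genes were picked, KO exceeded WT by 1.60 on the log2 scale (3.04-fold, SE 0.035, limma adjusted p = 4.21e-13). Within ERT2 cells the difference was 1.82 (limma adjusted p = 7.71e-12) and within Cre-ERT2 cells 1.38 (limma adjusted p = 1.03e-10). ERT2 KO cells, with no Cre, thus held more Igfbp4 transcript than Cre-ERT2 WT cells, by 0.91 between group means.

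Megf10 (ENSMUSG00000024593; chr18:57133090-57297467, up to 25 exons) had the same order of groups as Igfbp4. Its values were 9.37, 9.32 and 9.36 in ERT2 WT and 10.29, 10.32 and 10.35 in Cre-ERT2 WT libraries. They were 11.46, 11.41 and 11.46 in ERT2 KO and 12.07, 12.07 and 12.16 in Cre-ERT2 KO libraries. Each group was clear of the next by at least 0.60, far above the largest SD of 0.051. The rise with Cre-ERT2 was 1.96-fold in WT and 1.57-fold in KO (0.97 and 0.65 log2, SE 0.030 each).

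Megf10 also had the widest gap between backgrounds of the 5 genes. KO exceeded WT by 1.93 averaged over vectors (3.82-fold, SE 0.021, limma adjusted p = 9.70e-16). In ERT2 cells the difference was 2.09 (4.27-fold, limma adjusted p = 3.04e-14) and in Cre-ERT2 cells 1.78 (3.43-fold, limma adjusted p = 1.07e-13).

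Kbtbd11 (ENSMUSG00000055675; chr8:15011025-15033333, up to 2 exons) rose by close to 1.0 on the log2 scale with Cre-ERT2 in either background. It read 9.10, 9.12 and 9.04 in ERT2 WT and 10.11, 10.14 and 10.16 in Cre-ERT2 WT libraries. In KO cells it read 10.20, 10.19 and 10.27 with ERT2 and 11.19, 11.23 and 11.17 with Cre-ERT2. The rise was 2.07-fold in WT and 1.97-fold in KO (1.05 and 0.98 log2, SE 0.031 each), the most even pair among the 5 genes. Cre-ERT2 WT and ERT2 KO cells, each with 1 of the 2 changes, came close to each other: the means differed by 0.085 and the nearest values by 0.031, under the SD of 0.045. The groups did not overlap, but this neighboring pair is not separated beyond their spread.

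KO exceeded WT for Kbtbd11 by 1.10 averaged over vectors (2.14-fold, SE 0.022, limma adjusted p = 1.81e-13). The difference was 1.13 in ERT2 (limma adjusted p = 8.20e-12) and 1.06 in Cre-ERT2 cells (limma adjusted p = 1.51e-11).

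Phlda1 (ENSMUSG00000020205; chr10:111506286-111508645, up to 2 exons) rose more in KO than in WT cells on either scale. Its values were 9.12, 9.04 and 9.06 in ERT2 WT and 9.67, 9.68 and 9.61 in Cre-ERT2 WT libraries. They were 10.02, 9.97 and 10.00 in ERT2 KO and 11.06, 11.14 and 11.13 in Cre-ERT2 KO libraries. The groups did not overlap, the closest being Cre-ERT2 WT and ERT2 KO, 0.29 apart at their nearest values. Stabilization went with a 1.49-fold rise in WT and a 2.16-fold rise in KO (0.58 and 1.11 log2, SE 0.031 each). KO exceeded WT by 1.19 averaged over vectors (2.28-fold, SE 0.022, limma adjusted p = 9.06e-14), by 0.92 in ERT2 (limma adjusted p = 6.63e-11) and by 1.46 in Cre-ERT2 cells (limma adjusted p = 7.47e-13).

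Sbk1 (ENSMUSG00000042978; chr7:126272619-126295016, up to 4 exons) was the exception in that it was lower in KO than in WT cells. It read 10.67, 10.67 and 10.71 in ERT2 WT and 11.74, 11.75 and 11.74 in Cre-ERT2 WT libraries. In KO cells it read 9.77, 9.77 and 9.80 with ERT2 and 11.19, 11.15 and 11.13 with Cre-ERT2. From lowest to highest, the order was therefore KO and then WT without Cre, and KO and then WT with Cre, with at least 0.42 between nearest values of neighboring groups and SDs of at most 0.028. The rise with Cre-ERT2 was 2.08-fold in WT and 2.60-fold in KO (1.06 and 1.38 log2, SE 0.022 each). Averaged over vectors, Sbk1 was lower in KO by 0.74 (-0.74, SE 0.016, limma adjusted p = 2.94e-13). The difference was -0.90 in ERT2 (limma adjusted p = 3.17e-12) and -0.59 in Cre-ERT2 cells (limma adjusted p = 1.78e-10).

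**Figure D2:**
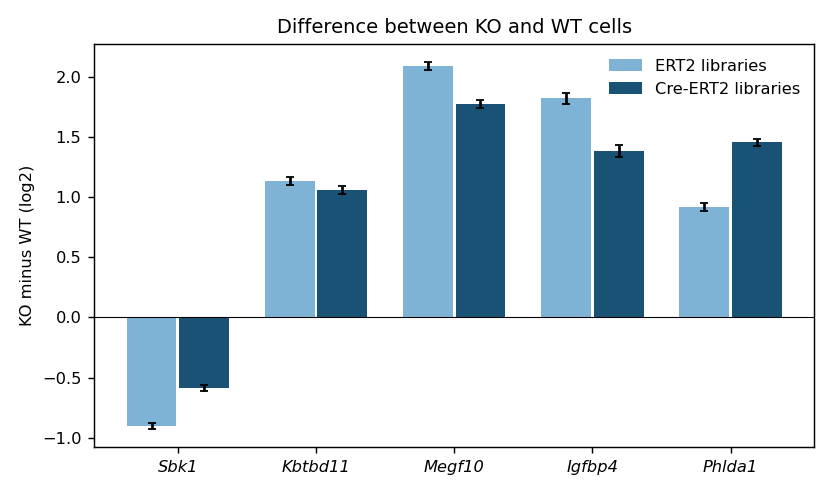
KO minus WT on the log2 scale (y axis) for each gene in ERT2 libraries (light bars) and Cre-ERT2 libraries (dark bars), with limma standard errors. Sbk1 lies below 0 with both vectors (-0.90 and -0.59) and the other 4 genes lie above it, from 0.92 for Phlda1 to 2.09 for Megf10 in ERT2 libraries.

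The knockout effect thus passed the test for 5 of 5 genes, 4 higher and 1 lower, but it did so for 69.0% of all genes tested (35.3% higher and 33.7% lower), so that passing is common in this comparison. Within ERT2 cells 59.0% of all genes were called and within Cre-ERT2 cells 58.9%. WT and KO values of the 5 genes did not overlap with either vector, which held for 65.5% of all genes with ERT2, 63.6% with Cre-ERT2 and 52.1% with both in the same direction. The sizes were less common over all genes. The average difference reached at least 1.0 in either direction in 1.97% of genes, as it did for Kbtbd11, Megf10, Igfbp4 and Phlda1. It reached at least 1.5 in 0.774%, as it did for Megf10 and Igfbp4. These shares include low genes, whose differences may be understated, and no share among genes of similar level was computed. The exact two-sided permutation test within vectors gave p = 0.005 for each of the 5 genes, the smallest its 400 rearrangements allow. Within 1 vector the exact permutation test of 3 against 3 libraries gave 0.10 for each, which is the smallest it can give. The within-vector differences use the same libraries as the rise that picked the genes, while the average over vectors is balanced against that rise. Earlier results of these data were known at the choice, so the average cannot be called untouched by it.

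The rise itself is read as a description. All Cre-ERT2 values lay above all ERT2 values in both backgrounds for 5 of 5 genes and for 5.95% of all genes. At a limma adjusted p under 0.05, 11.9% of all genes were called in WT (5.93% higher and 5.95% lower) and 12.6% in KO cells (7.27% higher and 5.33% lower), and 2.93% were called higher in both. Counted from the largest rise of 12151 genes, Sbk1 was 6th in WT and 3rd in KO, Kbtbd11 7th and 15th, Megf10 9th and 30th, Igfbp4 10th and 73rd, and Phlda1 31st and 6th. In WT cells Gm5537 (2.99), Tmem119 (1.46), Cpm (1.34), Dgka (1.31) and Nuak1 (1.16) rose more than Sbk1 and Kbtbd11, Pdzd2 (1.03) stood between Kbtbd11 and Megf10, and Ptpn22 (0.88) followed Igfbp4. In KO cells the chemokine receptor gene Ccr2 (2.14) and the T cell costimulatory receptor gene Cd28 (1.96) stood above Sbk1, Grb7 (1.24) above Phlda1 and Cd5 (1.02) above Kbtbd11. Of the 5 genes, none fell in either background.

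**Figure D3:**
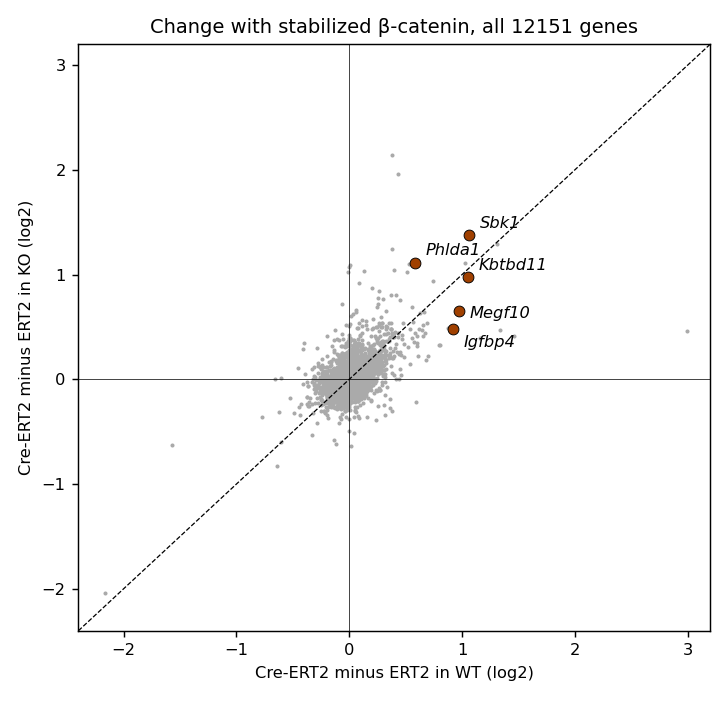
Cre-ERT2 minus ERT2 on the log2 scale in WT (x axis) and KO cells (y axis) for all 12151 genes (grey points), with the 5 genes as filled brown points and the dashed line at equal change. Sbk1 and Phlda1 lie above the line, Megf10 and Igfbp4 below it and Kbtbd11 near it.

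How the rise compared between backgrounds depended on the scale, and a difference between the backgrounds was called for 4.53% of all genes. On the log2 scale the KO rise exceeded the WT rise by 0.54 for Phlda1 and 0.32 for Sbk1, and was smaller for Igfbp4 (-0.44), Megf10 (-0.32) and Kbtbd11 (-0.07). In unlogged normalized units, Megf10 gained 628 ± 17.3 (SE, n = 3 against 3) in WT and 1602 ± 96.3 in KO cells, and Igfbp4 817 ± 56.0 and 1277 ± 135. Both thus gained a smaller multiple but more units in KO cells, where they started from a higher level. Kbtbd11 gained 582 ± 14.4 units in WT and 1153 ± 35.9 in KO, and Phlda1 266 ± 14.9 and 1189 ± 38.1. Sbk1 went the other way, with a larger multiple but fewer units in KO (1404 ± 25.8) than in WT cells (1781 ± 15.9), from a lower start. Phlda1 alone gained more in KO cells on both scales.

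**Figure D4:**
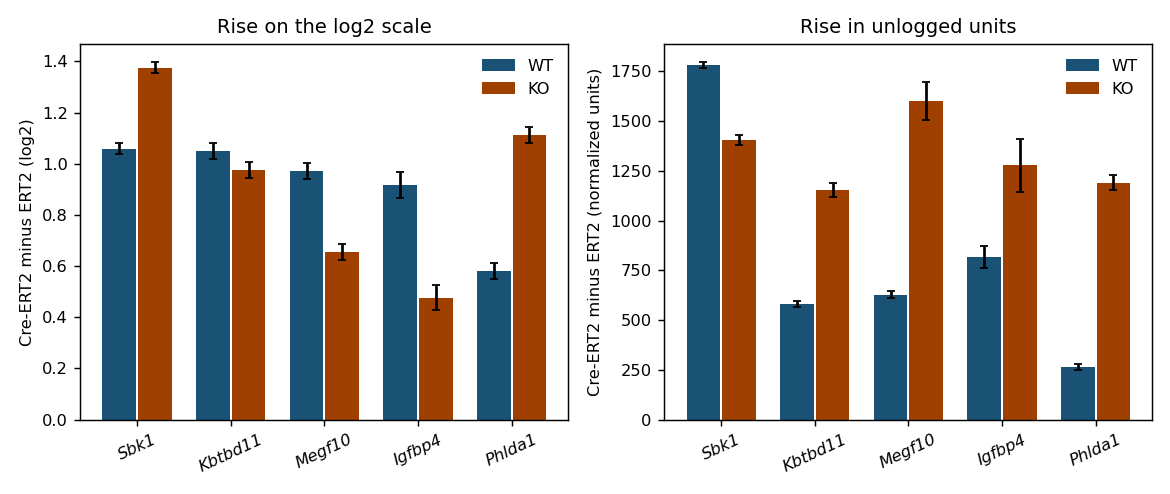
Cre-ERT2 minus ERT2 for each gene in WT (blue bars) and KO cells (brown bars), on the log2 scale at the left and in unlogged normalized units at the right, with standard errors of the difference. Megf10, Igfbp4 and Kbtbd11 have the taller bar in WT cells at the left and in KO cells at the right, Sbk1 the reverse, and Phlda1 the taller bar in KO cells on both sides.

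Of the 10 nearest measured genes, 1 on each side of each of the 5 genes, limma called 2 higher and 1 lower with Cre-ERT2 in either background. Of all genes it called 11.9% in WT and 12.6% in KO cells. The 10 lay 4.4 to 920.7 kb away, and the called ones are named after their values were seen. Both neighbors that rose flank Igfbp4. Ccr7, a chemokine receptor gene 89.8 kb beyond its end, rose by 0.39 in WT and 0.20 in KO (limma adjusted p = 2.27e-05 and 0.00374) and was lower in KO than in WT cells (-1.33, limma adjusted p = 1.58e-13). Top2a, a topoisomerase gene 17.1 kb before its start, rose by 0.11 in both (limma adjusted p = 0.0237 and 0.0234) and was also lower in KO cells (-0.32, limma adjusted p = 1.19e-08), where Igfbp4 was higher. Top2a lost its call in WT without replicate 1 or 2 of ERT2 WT or 1 or 3 of Cre-ERT2 WT (limma adjusted p = 0.0674 to 0.0987), and in KO without any ERT2 KO library or replicate 1 or 3 of Cre-ERT2 KO (limma adjusted p = 0.0591 to 0.0783). The 2 that fell were Krr1, beyond Phlda1, in WT (-0.12, limma adjusted p = 0.016) and Myom2, beyond Kbtbd11, in KO (-0.17, limma adjusted p = 0.0142). Krr1 lost its call without ERT2 WT replicate 3 or Cre-ERT2 WT replicate 1, and Myom2 without replicate 2 of ERT2 KO or Cre-ERT2 KO (limma adjusted p = 0.0518 to 0.0581).

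Across the 12 libraries, Megf10 and Igfbp4 followed almost the same pattern (Pearson r = 0.996) and Kbtbd11 followed Phlda1 with r = 0.969. The other pairs among these 4 genes had r of 0.931 to 0.943. Sbk1 stood apart, with r of -0.157 to 0.191 with the other 4. The points share 4 group means, so these coefficients describe the order and spacing of the groups. Genes outside the set with the most similar pattern were Ptpn22 for both Megf10 (r = 0.997) and Igfbp4 (r = 0.996), Kremen1 for Kbtbd11 (r = 0.988), Cd244 for Phlda1 (r = 0.991) and Pdzd2 for Sbk1 (r = 0.994). Ptpn22, which encodes a phosphatase that restrains antigen receptor signaling, rose by 0.88 in WT and 0.49 in KO and was 1.63 higher in KO than in WT cells, close to the values of Igfbp4. Pdzd2 rose by 1.03 and 1.11 and was lower in KO by 0.73 (-0.73), where Sbk1 rose by 1.06 and 1.38 and was lower by 0.74 (-0.74). Plod2, Gm14029, Asap1 and Phlpp1 came next for Megf10, and Asap1, Bok, Akr7a5 and Snx29 for Igfbp4. For Kbtbd11 these were Acsl1, Etv5, Dusp4 and Vav1, for Phlda1 Lrrn4, Etv5, 1110032F04Rik and Grb7, and for Sbk1 Pik3r5, Ipcef1, Twsg1 and Pla2g2f, all with r of at least 0.975. Such a coefficient takes no account of size: Vav1 followed Kbtbd11 with r = 0.976 but rose by only 0.061 and 0.075.

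Of 50 listed Wnt target genes other than these 5, 25 were measured. In WT cells 9 of the 25 rose and 3 fell, with a median difference of 0.046, where limma called 11.9% of all genes. In KO cells 12 rose and 3 fell, with a median of 0.057, where 12.6% of all genes were called. The median of all genes was 0 in WT and -4e-04 in KO cells. Kremen1, a coreceptor of the Wnt inhibitor DKK1, rose by 0.69 in WT and 0.54 in KO (limma adjusted p = 5.39e-07 and 3.42e-06), and Nkd1, a feedback inhibitor, by 0.53 and 1.10 (limma adjusted p = 9.18e-08 and 5.42e-11). Tcf7, a TCF/LEF factor, rose by 0.26 and 0.85 (limma adjusted p = 3.77e-05 and 4.52e-10). Axin2, a scaffold of the destruction complex and widely used target, rose by 0.29 and 0.14 (limma adjusted p = 2.08e-07 and 8.92e-05), and Lef1 by 0.20 and 0.16 (limma adjusted p = 0.000526 and 0.00241). Axin2 was a low gene, with group means from 5.01 in ERT2 KO (SD 0.00028, as at a floor) to 5.37 in Cre-ERT2 WT. Its rises may thus be understated, and their sizes in WT and KO cells are not compared. Myc went down, by -0.62 in WT and -0.31 in KO (limma adjusted p = 6.69e-10 and 3.11e-07). The others called lower were Bambi (-0.11, limma adjusted p = 0.000546) and Fzd7 (-0.12, limma adjusted p = 0.0288) in WT and Ppard (-0.16, limma adjusted p = 0.0386) and Vegfa (-0.11, limma adjusted p = 0.0216) in KO. Fzd7 lost its call without any ERT2 WT library or Cre-ERT2 WT replicate 2 or 3 (limma adjusted p = 0.0527 to 0.0997). Vegfa lost it without Cre-ERT2 KO replicate 1 or 2 or ERT2 KO replicate 3 (limma adjusted p = 0.0681 to 0.0886). Ppard lost it without any Cre-ERT2 library, ERT2 KO replicate 3 or ERT2 WT replicate 1 (limma adjusted p = 0.0522 to 0.119). With the knockout 16 of the 25 were higher and 6 lower, with a median of 0.30, where 69.0% of all genes were called.

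Igfbp4 belongs to the IGF axis, of which 24 genes other than Igfbp4 were listed and 11 measured, and none of them was another Igfbp gene. In WT cells 2 rose, Igf1 by 0.30 (limma adjusted p = 0.00833) and the receptor substrate gene Irs2 by 0.16 (limma adjusted p = 0.00847), and 1 fell, the adaptor gene Grb10 by -0.19 (limma adjusted p = 0.0045). The call of Igf1 was lost in the fit to the 6 WT libraries alone (limma adjusted p = 0.0703). That is 3 of 11 called, where 11.9% of all genes were, with a median difference of 0.043. In KO cells limma called none higher and 3 lower, Igf2 (-0.49, adjusted p = 2.44e-07), Grb10 (-0.21, adjusted p = 0.00189) and Stc2 (-0.11, adjusted p = 0.0454). There 12.6% of all genes were called, and 6 of the 11 had an unadjusted p under 0.05. Leaving out any single library other than Cre-ERT2 KO replicate 2 ended the Stc2 call (-0.13 to -0.085, limma adjusted p = 0.0529 to 0.162). Igf2 read 5.34 in all 6 WT libraries, 5.97, 5.99 and 6.11 in ERT2 KO and 5.51, 5.52 and 5.56 in Cre-ERT2 KO libraries, so that it was higher in KO cells and lower with Cre-ERT2 among them. With the knockout 6 of the 11 were higher, including Grb10 by 1.85 and Stc2 by 1.74 (limma adjusted p = 5.35e-15 and 4.53e-15). The 4 lower were Irs2 by -0.99, Igf1 by -0.42, Grb2 by -0.27 and Shc1 by -0.084 (limma adjusted p of 0.0171 or less). That is 10 of 11 called, where 69.0% of all genes were.

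Of 35 listed MEGF family and engulfment genes other than Megf10, 17 were measured. In WT cells limma called 0 of 17, with 7 at an unadjusted p under 0.05, and in KO cells it called Lrp1 and Mfge8 higher and Rac1 lower. Of all genes 11.9% were called in WT and 12.6% in KO cells. Megf9 differed by 0.14 and 0.15 without passing the test (limma adjusted p = 0.107 and 0.0862). Lrp1, an engulfment receptor, rose by 0.24 in KO (limma adjusted p = 0.00595) and read -0.055 in WT. Mfge8, a bridge between apoptotic cells and integrins, rose by 0.13 and the GTPase gene Rac1 fell by -0.075 in KO (limma adjusted p = 0.0271 and 0.0242). Mfge8 lost its call without replicate 1 or 2 of Cre-ERT2 KO or 1 or 3 of ERT2 KO, and Rac1 without 2 or 3 of Cre-ERT2 KO or 1 or 3 of ERT2 KO (limma adjusted p = 0.0533 to 0.106). With the knockout 7 were higher and 6 lower, among them Lrp1 by 0.83 and Megf9 by -0.42 (limma adjusted p = 2.68e-10 and 3.61e-07). That is 13 of 17 called, where 69.0% of all genes were.

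Of 29 listed KBTBD, kelch and CUL3 ligase genes other than Kbtbd11, 23 were measured. In WT cells 1 rose, the CUL3 adaptor gene Klhl9 by 0.22 (limma adjusted p = 0.011), and 1 fell, Klhl6 by -0.090 (limma adjusted p = 0.0114). In KO cells 3 rose, Klhl14 by 0.34 (limma adjusted p = 1.42e-05), Klhl9 by 0.20 (limma adjusted p = 0.0172) and Klhl24 by 0.16 (limma adjusted p = 0.022), and 1 fell, Klhl21 by -0.13 (limma adjusted p = 0.033). Of all genes limma called 11.9% in WT and 12.6% in KO cells. The calls of the named Klhl genes other than Klhl14 rest on single libraries. Without Cre-ERT2 WT replicate 3 the rise of Klhl9 in WT was 0.18 (limma adjusted p = 0.0526), and without Cre-ERT2 WT replicate 2 that of Klhl6 was -0.076 (limma adjusted p = 0.0548). In KO cells Klhl9 lost its call without Cre-ERT2 KO replicate 3 or ERT2 KO replicate 1 or 2 (0.18 to 0.20, limma adjusted p = 0.0541 to 0.067), and so did Klhl24 (0.12 to 0.16, limma adjusted p = 0.0616 to 0.0885). Klhl21 lost it without any ERT2 KO library or Cre-ERT2 KO replicate 2 or 3 (limma adjusted p = 0.0646 to 0.11). The nearest measured relatives, Kbtbd2, Kbtbd3, Kbtbd4, Kbtbd7 and Kbtbd8, did not pass the test in either background, with differences between -0.054 and 0.10. With the knockout 7 of the 23 were higher and 11 lower, with a median of 0.00033, where Kbtbd11 itself was higher by 1.10. Of all genes 69.0% were called.

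Of the PHLDA family Phlda3 was measured. It fell by -0.11 in WT (limma adjusted p = 0.0299) and read -0.067 in KO (limma adjusted p = 0.197), opposite in sign to Phlda1, and it was 0.19 higher with the knockout (limma adjusted p = 6.22e-06). The WT call was lost without ERT2 WT replicate 1 or 3 or Cre-ERT2 WT replicate 1 or 2 (-0.12 to -0.097, limma adjusted p = 0.0611 to 0.113). Sbk2 and Sbk3, the relatives of Sbk1, were not analysed here.

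**Figure D5:**
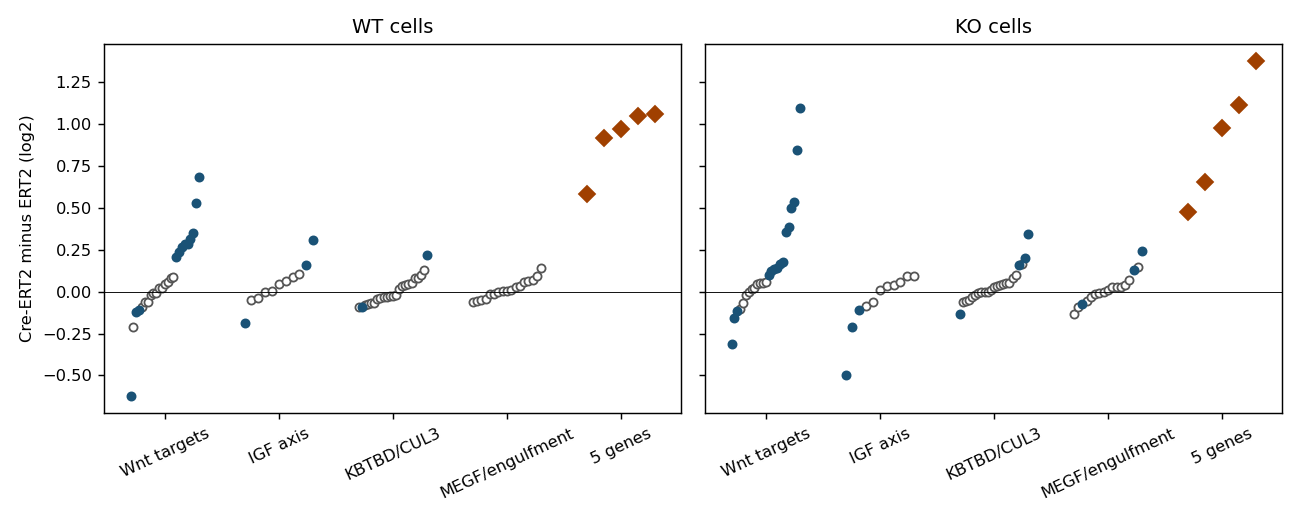
Cre-ERT2 minus ERT2 on the log2 scale (y axis) in WT (left) and KO cells (right) for the measured genes of 4 lists, ordered by value within each list, with filled circles for a limma adjusted p under 0.05 and open circles otherwise. Diamonds are the 5 genes, shown with no test because their rise chose them. In WT cells Kremen1 (0.69) is the only listed gene above the lowest of them, Phlda1 (0.58). In KO cells the lowest is Igfbp4 (0.48), and Nkd1 (1.10), Tcf7 (0.85) and Kremen1 (0.54) are among the listed genes above it.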

How the data were processed

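RNA of the 12 libraries was isolated from GFP+ BCR-ABL1 pre-B cells, and polyA libraries were made from 280 ng with a stranded kit and 10 cycles of PCR. Per the submitters' processing notes, Salmon 1.4.0, STAR 2.7.6 and DESeq2 1.30.1 were used with mm10/GRCm38. The authors deposited 1 table of log2 normalized values per gene, and the transformation behind it is not given in the sources used here. Genes with low values hardly differ between libraries (Igf2 has an SD of 0.00034 in ERT2 WT), so differences of low genes may be understated. Counts were not analysed here, so the depth is unknown and no interval for counting error is given.

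A linear model with 4 group means was fitted to all 12151 genes and 12 libraries in limma 3.58.1 (R 4.3.3) with a mean-dependent prior, no pseudocount and no filter. Benjamini-Hochberg adjusted p-values run over all genes and a call is an adjusted p under 0.05. The fit was tested on simulated data. The effect of stabilized β-catenin is read as Cre-ERT2 minus ERT2 in each background, which includes any effect of Cre itself. The knockout effect is KO minus WT within a vector or averaged over both. The exact permutation test exchanged KO and WT labels within vectors. Unlogged units are 2 raised to the log2 value.

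The 5 genes and the gene lists were chosen with earlier results of these data known. A gene of the MEGF list is not reported here and is left out of its counts. Named besides the 5 genes are the targeted genes, measured paralogs, up to 4 genes per list called in both backgrounds with the same sign, up to 3 per list with a called difference between backgrounds, the 5 genes most similar to each of the 5 by Pearson r, and the genes ranking next to them by rise. Genes behind counts of 5 or fewer, Axin2, Lef1, Cd5, Cd28, Zap70 and the genes flanking the 5 were named after their values were seen. Alternatives were pseudocounts of 1 and 32, a filter at a mean log2 of 6, median centering, quantile normalization, a prior without trend, fits to the 6 libraries compared, a replicate block, an adjusted p under 0.01 and leaving out each library.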

Additional observations from a re-analysis of the deposited data

Results flagged for a closer look

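The effect of Cre-ERT2 on 76 list genes was tested by limma for a difference between KO and WT cells. At an adjusted p under 0.05, 14 of them were called, and 4.53% of all genes. The 9 with the largest difference in their lists, up to 3 a list, are given here, and Sbk1, Kbtbd11, Megf10, Igfbp4 and Phlda1 do not enter because their rise chose them. Among Wnt targets, the rise of Tcf7 was larger in KO by 0.58 (SE 0.038, limma adjusted p = 2.04e-06), as it was for Nkd1 by 0.57 (limma adjusted p = 2.74e-06). Myc fell less in KO, a difference of 0.31 (limma adjusted p = 2.70e-05). Igf2 changed by 0.00014 in WT and -0.49 in KO cells, a difference of -0.50 (limma adjusted p = 2.40e-05). All 6 WT libraries read 5.34, with SDs of 0.00034 (ERT2) and 0.00046 (Cre-ERT2), as at a floor. A fall in WT cells may thus not have been visible, and the test cannot show that the effect of Cre-ERT2 differed. For Klhl14 the difference was 0.26 (limma adjusted p = 0.00543).

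The calls of the remaining differences were lost when single libraries were left out. Klhl6 had 0.13 (limma adjusted p = 0.0215) and lost its call without ERT2 WT replicate 2, Cre-ERT2 WT replicate 2, or ERT2 KO replicate 1 or 3 (0.12 to 0.13, limma adjusted p = 0.0556 to 0.0576). Lrp1 had 0.30 (limma adjusted p = 0.0316) and lost its call without ERT2 WT replicate 1, ERT2 KO replicate 1, Cre-ERT2 KO replicate 1 or any Cre-ERT2 WT library (0.24 to 0.30, limma adjusted p = 0.0548 to 0.0725). Calr had 0.13 (limma adjusted p = 0.034) and lost its call without any ERT2 WT library, Cre-ERT2 WT replicate 1 or 2, ERT2 KO replicate 2 or 3, or Cre-ERT2 KO replicate 2 (0.12 to 0.14, limma adjusted p = 0.0505 to 0.0877). Kbtbd3 had 0.081 (limma adjusted p = 0.0431) and lost its call without any single library other than ERT2 WT replicate 1 and Cre-ERT2 WT replicate 3 (0.072 to 0.085, limma adjusted p = 0.0627 to 0.103).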

How the results depend on the processing

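The knockout effect on the 5 genes kept its direction and its call under every alternative, as did 5 of 5 genes averaged over vectors and within either vector, the fits without 1 library included. Over the alternatives it ran from -0.78 to -0.73 for Sbk1, 1.07 to 1.11 for Kbtbd11, 1.90 to 1.95 for Megf10, 1.57 to 1.63 for Igfbp4 and 1.15 to 1.20 for Phlda1 (limma adjusted p of 4.35e-11 at most). Of 335 values of the rise, its median and its difference between backgrounds, 333 moved by less than the replicate SD. For a single gene this limit was the largest of its group SDs. Many of these values could not move. The filter, the prior, the block and the fit to 6 libraries leave a difference of group means unchanged. So does leaving out a library outside the groups compared. The count is therefore no measure of robustness. With a pseudocount of 32 the median rise in WT was 0.938 and the rise of Sbk1 in KO 1.34. Replicate numbers did not pair the libraries (2 of 12 same-number correlations above 0.1, from -0.0684 to 0.3127). Unlike numbers gave correlations from -0.3549 to 0.3556, both ends between Cre-ERT2 WT and Cre-ERT2 KO libraries. A block by replicate number does not remove such structure. With the replicate block limma called 5 of 5 genes, 1 difference between backgrounds in the KBTBD list and 0 in the MEGF list.

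Counts of list genes called by limma moved by more than 1.5 times as follows. In the KBTBD list, WT calls were 1 in the fit to 6 libraries and 0 at an adjusted p under 0.01, KO calls 1 at an adjusted p under 0.01, and calls of a difference between backgrounds 1 after quantile normalization and 1 at an adjusted p under 0.01. In the MEGF list, WT calls were 1 with the filter, 1 with a prior without trend and 1 with a pseudocount of 32, KO calls 1 in the fit to 6 libraries and 1 at an adjusted p under 0.01, and calls of a difference 1 after quantile normalization and 0 at an adjusted p under 0.01. In the IGF list, calls of a difference were 0 with the filter, which leaves out Igf2. Leaving out 1 library gave 1 to 3 WT calls, 1 to 4 KO calls and 1 to 3 calls of a difference in the KBTBD list, 0 to 1, 1 to 4 and 0 to 2 in the MEGF list, and 1 to 2 calls of a difference in the IGF list. Values near 0 that no fit called changed sign in 3 genes. Igf2 in WT was -0.0057 after median centering, -0.0069 after quantile normalization and -0.00013 to 0.00029 without 1 library. Without 1 library Kbtbd2 ran from -0.046 to 0.0068 in WT and -0.035 to 0.040 in KO, and Kbtbd8 from -0.086 to 0.0015 in KO. Named genes that lost a call by limma were Igf1, Klhl9, Phlda3 and Top2a in WT and Top2a, Stc2, Ppard, Vegfa, Klhl24, Mfge8, Rac1 and Myom2 in KO in the fit to 6 libraries. Under the replicate block they were Phlda3 in WT, Stc2 and Ppard in KO and the differences between backgrounds of Lrp1, Klhl6, Calr and Kbtbd3. The last 3 differences and both Top2a calls were lost after quantile normalization, and that of Kbtbd3 also after median centering and with a prior without trend. The causes were not tested. Depth is unknown, and 3 libraries a group limit the precision.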
